A study of Mus musculus with 24 samples.

Results

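The genes described here encode the proteins of the cytoplasmic ribosome. They were taken by symbol, as every gene named Rpl or Rps followed by a number, the stalk genes Rplp0, Rplp1 and Rplp2, and Rpsa, leaving out the Rps6k kinase genes (4 on these arrays) and pseudogenes. This gave 58 of the 5660 named genes that could be tested, measured by 103 array features: 37 genes of the large subunit and 21 of the small subunit. All 58 had values on at least 2 of the 3 arrays of every day, and 52 had a value on all 24 arrays. Rpl11, Rps3, Rps27a, Rps27l, Rpl39l and Rpl3l were not analysed here.

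RNA came from the mouse hepatoblast line HBC-3, which can form hepatocyte-like or bile-duct-like cells. The cells were placed on Matrigel, a laminin-rich basement membrane gel. Day 0 was undifferentiated cells grown on plastic after the STON+ feeder layer was removed with trypsin, and days 1 to 7 were cells that had spent that many days on the gel, with 3 arrays lettered A, B and C for each of the 8 time points. All groups were the same untreated line, amplified RNA was used throughout, and the Cy3 channel of every array held undifferentiated HBC-3 RNA as the common reference, so that both channels of the day 0 arrays held undifferentiated cells. Values are log2 ratios centred on each array's median. That they are sample over reference is likely from the dyes in the labels, but is not stated with the deposited table, and the base of the logarithm is likewise read from the range of the values. Whether arrays A, B and C of a time point stem from different cultures is not stated in the labels, and the p-values therefore describe the spread among arrays, possibly a technical one.

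A ribosome holds nearly every ribosomal protein in equal amounts, so cells make these proteins in step with each other and with ribosomal RNA. The mRNAs are among the most abundant in growing cells, and in mammals they begin with a run of pyrimidines, the terminal oligopyrimidine tract, which puts their translation under the control of mTOR and of the binding protein Larp1. This control acts mainly on translation, and the arrays measured mRNA only. In liver, ribosome production is high in proliferating fetal hepatoblasts and in regenerating hepatocytes.

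The start sites are shown first because the pyrimidine run is the sequence that these mRNAs are known to share. RefSeq start sites (GRCm38.p6) were available for 46 of the 58 genes. The window printed is 15 bases on either side of the listed start, on the sense strand, for the 12 genes with a window that passed the test in any comparison below. Capitals mark a run counted from the first C, from 5 bases before to 5 bases after the start, that at least 4 more bases of C or T follow. All other letters are in lower case. Bases before that C were not checked, so a marked run can be the end of a longer pyrimidine stretch, as for Rpl7a and Rpl35. A run without such a C at these positions was not marked. A window without capitals therefore does not show that the mRNA lacks the tract.
Rpl15: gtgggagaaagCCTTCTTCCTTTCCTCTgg
Rpl35: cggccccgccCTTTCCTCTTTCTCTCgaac
Rpl7a: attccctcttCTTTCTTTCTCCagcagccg
Rps10: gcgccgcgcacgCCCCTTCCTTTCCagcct
Rps9: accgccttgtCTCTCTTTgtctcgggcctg
Rpl27: acgctctgttcctgtctgctgctcgtgctg
Rpl41: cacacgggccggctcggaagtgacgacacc
Rpl6: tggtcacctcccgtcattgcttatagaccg
Rpl7l1: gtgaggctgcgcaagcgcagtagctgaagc
Rpl9: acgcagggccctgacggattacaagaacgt
Rps25: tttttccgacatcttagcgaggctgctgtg
Rps4x: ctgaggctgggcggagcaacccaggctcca
The windows of the genes with a run lie for Rpl15 at chr14:18270972-18271001 on the minus strand, Rpl35 at chr2:39005117-39005146 on the minus strand, Rpl7a at chr2:26910792-26910821 on the plus strand, Rps10 at chr17:27635230-27635259 on the minus strand and Rps9 at chr7:3704026-3704055 on the plus strand. Those of the genes without one lie for Rpl27 at chr11:101442230-101442259 on the plus strand, Rpl41 at chr10:128549154-128549183 on the minus strand, Rpl6 at chr5:121204486-121204515 on the plus strand, Rpl7l1 at chr17:46782642-46782671 on the minus strand, Rpl9 at chr5:65391417-65391446 on the minus strand, Rps25 at chr9:44407699-44407728 on the plus strand and Rps4x at chrX:102189377-102189406 on the minus strand.
Such a run was present near the start in 21 of the 46 genes (45.7%), against 18.5% of the 27025 genes with a listed window. The 5 bases from the listed start were a C and 4 more bases that are C or T in 10 of the 46 (21.7%), against 2.49%. That count includes runs that began before the listed start and continued over it, as in Rpl15. Of the 12 genes printed, Rpl7a, Rpl35, Rps9, Rpl15 and Rps10 had it (5 genes), and of the other 34 it was found in 16. Windows with and without a run thus occurred both among the genes that passed a test and among those that did not. Rpl29, Rplp1 and Rps14, which also passed a test, had no entry among the windows.

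The ribosomal protein mRNAs stayed close to the reference level, and how close depended on the array. In the order A, B and C, their median log2 ratio was 0.35, 0.26 and -0.13 on the day 0 arrays. On day 1 it was 0.04, 0.10 and -0.09, on day 2 it was 0.23, 0.41 and 0.13, and on day 3 it was 0.35, -0.11 and 0.14. The first days on Matrigel therefore held medians at or a little above the reference, apart from day 1 array C and day 3 array B. On day 4 the median was -0.04, 0.19 and 0.03, on day 5 it was -0.31, -0.17 and -0.01, on day 6 it was -0.32, 0.38 and 0.06, and on day 7 it was -0.47, -0.05 and -0.17. All arrays of days 5 and 7 were thus below the reference at the median, and array A was the lowest of its day on days 5, 6 and 7. The medians of the large and the small subunit lay on the same side of 0 on 19 of 24 arrays and were at most 0.23 apart. They lay on opposite sides on day 1 array A, day 4 array A, day 5 arrays B and C and day 7 array B.

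**Figure D1:**
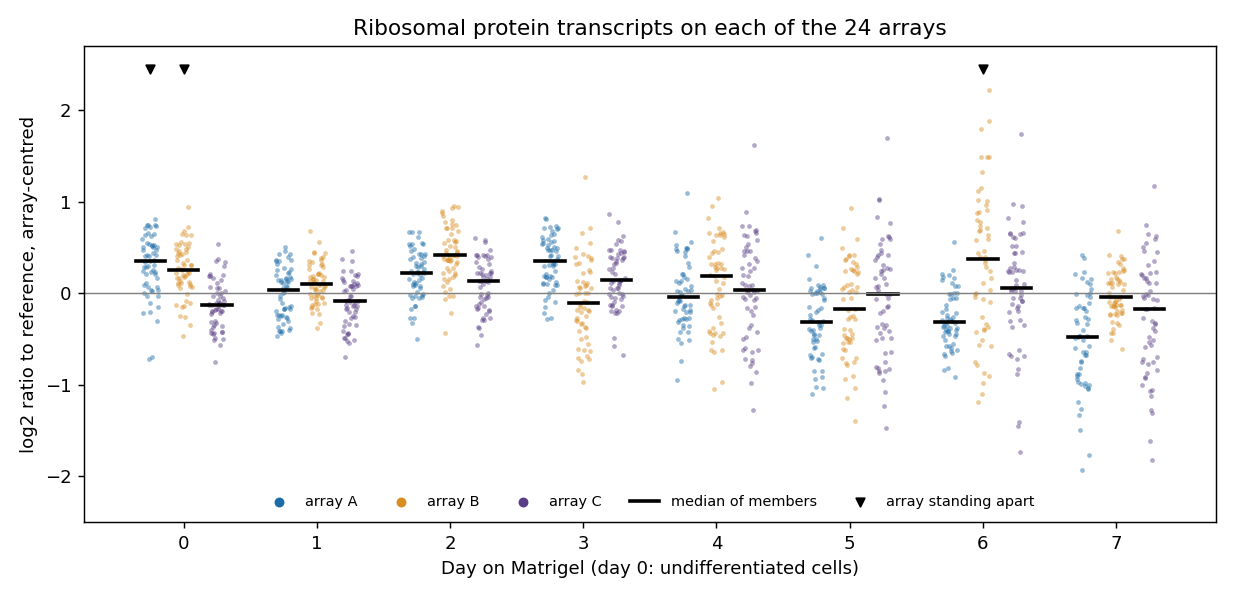
Log2 ratios to the reference (vertical axis) of the ribosomal protein genes on each array, by day (horizontal axis) and array letter (colour), with a black bar at the median of the members and a triangle above the 3 arrays that stand apart. Medians range from -0.47 on day 7 array A to 0.41 on day 2 array B, and the points are most widely spread on day 6 array B.

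Several arrays stood apart for these genes. Day 0 arrays A and B held most members above the reference, 49 of 58 on A and 47 of 57 on B, although both channels held undifferentiated cells, while array C held 17 of 58 above it. Over all genes and features tested, day 0 array A correlated with array C at -0.36, and over the members alone at -0.46. Since the labels name the same dyes for both arrays, the direction of the day 0 ratios is not settled, and the comparisons with day 0 are also given with the sign of all day 0 arrays, or of array C alone, turned. Correlations are given as descriptions, since genes are not independent replicates.

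Day 6 array B also stood apart. The interquartile range of the members was 1.23 there, against 0.30 to 0.93 on the other 23 arrays. Over all genes and features it was 1.19 there and 0.42 to 1.31 on the others, so the members were about as spread as genes in general on this array. Its correlation over the members with the other arrays of days 1 to 7 averaged -0.00, against 0.55 over all genes and features. Rps28 (2.22), Rps29 (1.88), Rpl37rt (1.79), Rps26 (1.49) and Rps20 (1.48) were its highest members, 4 of these 5 being proteins of the small subunit. Rpl27 (-1.19), Rpl6 (-1.10), Rpl7a (-0.98), Rps3a1 (-0.91) and Rplp0 (-0.87) were its lowest. Over the members, day 6 array B correlated with day 0 arrays A, B and C at 0.53, 0.21 and -0.46. Over all genes and features these correlations were 0.14, 0.02 and -0.17. Since the direction of the day 0 ratios is not settled, neither is the sign of these correlations.

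The C arrays of days 4 to 7 formed a set of their own. Over the members they correlated with each other at 0.80 to 0.97, with a mean of 0.89, but with the arrays of days 1 to 3 at a mean of 0.01 and with the A and B arrays of days 4 to 7 at a mean of 0.06. The corresponding means over all genes and features were 0.90, 0.57 and 0.54. The arrays of days 1 to 3 correlated with each other at a mean of 0.65 over the members. Which ribosomal protein genes were high and which were low was therefore shared within the late C arrays and hardly shared between them and the remaining arrays. The labels give the letters no meaning beyond the replicate.

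The comparison of days 5 to 7 with days 1 to 3, in which the day 0 arrays enter only the estimate of the spread, asks whether the mRNAs shifted during the time on Matrigel. Rplp1, Rps14, Rpl29, Rpl7a, Rpl15, Rps9, Rpl9 and Rpl6 were lower on the late days, by 1.39-fold to 1.86-fold, and no member was higher. These were 8 of the 58 members, 6 of 37 in the large subunit and 2 of 21 in the small. Over all 10639 genes and features tested, 7.74% passed the threshold in either direction and 4.23% were lower. The median change of the 58 members was -0.20, against -0.02 over everything tested, and 48 of the 58 had a negative change, against 52.1% of everything tested. At an unadjusted p under 0.05 the counts were 22 of 58 members and 26.3% of everything tested.

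These calls treat the 9 arrays of a period as independent, which the data do not bear out. Deviations from the day mean correlated between arrays of 1 letter in all 9 pairs within days 1 to 3 (0.19 to 0.44) and all 18 within days 4 to 7 (0.14 to 0.91). In a fit added after seeing the data, with letter within period as a random block (correlation 0.49), 0 of 58 members passed in limma. The adjusted p of the 8 members then ran from 0.140 to 0.421, and 11 of all 10639 genes and features passed. The changes themselves were the same in that fit, and every statement, above and below, that a member or listed gene was lower or higher late than early holds for the fit without the block only.

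Rpl7a, a large-subunit protein, had early and late arrays that did not overlap. Its 9 early arrays had a lowest, median and highest log2 ratio of -0.17, 0.01 and 0.23, and its 9 late arrays of -1.07, -0.65 and -0.24. Every late array was below every early one, and the change was -0.71 ± 0.14 (SE; limma, adjusted p = 0.00539). Both of its features gave a lower late level, by -0.74 and -0.69.

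Rplp1 had the largest fall. It is an acidic protein of the ribosomal stalk, which draws elongation factors to the ribosome. The early arrays lay at 0.01, 0.56 and 0.80 (lowest, median, highest) and the late arrays at -1.28, -0.26 and 0.46. Of the late arrays, 6 of 9 were below the lowest early one, and the change was -0.90 ± 0.21 (SE; limma, adjusted p = 0.0159). The late C arrays were the lowest, at -0.85, -0.83 and -1.28, and the late B arrays the highest, at 0.10, 0.46 and 0.10.

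Rpl29, a basic large-subunit protein that also binds heparin, was at -0.41, -0.12 and 0.44 (lowest, median, highest) on the early arrays and at -1.33, -0.76 and -0.32 on the late arrays. Its change was -0.73 ± 0.14 (SE; limma, adjusted p = 0.00494), and 7 of 9 late arrays lay below the lowest early one. Rpl15, a protein of the core of the large subunit, was at -0.01, 0.39 and 0.55 early and at -0.71, -0.43 and 0.03 late. Its change was -0.64 ± 0.13 (SE; limma, adjusted p = 0.0072), with 7 of 9 late arrays below all early ones, and its 3 features agreed, at -0.70 to -0.61.

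Rpl9, another large-subunit protein, was at -0.17, 0.23 and 0.65 on the early arrays and at -0.60, -0.31 and -0.05 on the late arrays, all of which were below 0. The change was -0.59 ± 0.12 (SE; limma, adjusted p = 0.00844). For Rpl7a, Rplp1, Rpl29, Rpl15 and Rpl9 the adjusted p remained under 0.05 in 32 of 33 alternative settings, the exception being the random block.

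Rpl6, Rps14 and Rps9 were called with less margin. Rpl6, of the large subunit, was at -0.18, 0.18 and 0.51 (lowest, median, highest) early and at -1.10, -0.20 and 0.09 late. The change was -0.47 ± 0.13 (SE; limma, adjusted p = 0.0382). Neither Rpl6 nor Rps14 passed when day 0 arrays A and B and day 6 array B were left out together, whereas all 8 members passed without day 6 array B alone. Rps14 and Rps9 are small-subunit proteins that join the assembling ribosome early. Rps14 was at -0.48, 0.05 and 0.30 early and at -1.82, -0.55 and 0.15 late, a change of -0.80 ± 0.24 (SE; limma, adjusted p = 0.0443). Rps9 was at 0.06, 0.40 and 0.94 early and at -0.70, 0.06 and 0.21 late, a change of -0.60 ± 0.18 (SE; limma, adjusted p = 0.0448). Neither passed the threshold without the C arrays of days 4 to 7, which held the lowest Rps14 values of the series, at -1.27, -1.48, -1.41 and -1.82 on days 4, 5, 6 and 7. When each of the 24 arrays was left out in turn, Rpl6 passed in 13 fits, Rps14 in 10 and Rps9 in 9.

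**Figure D2:**
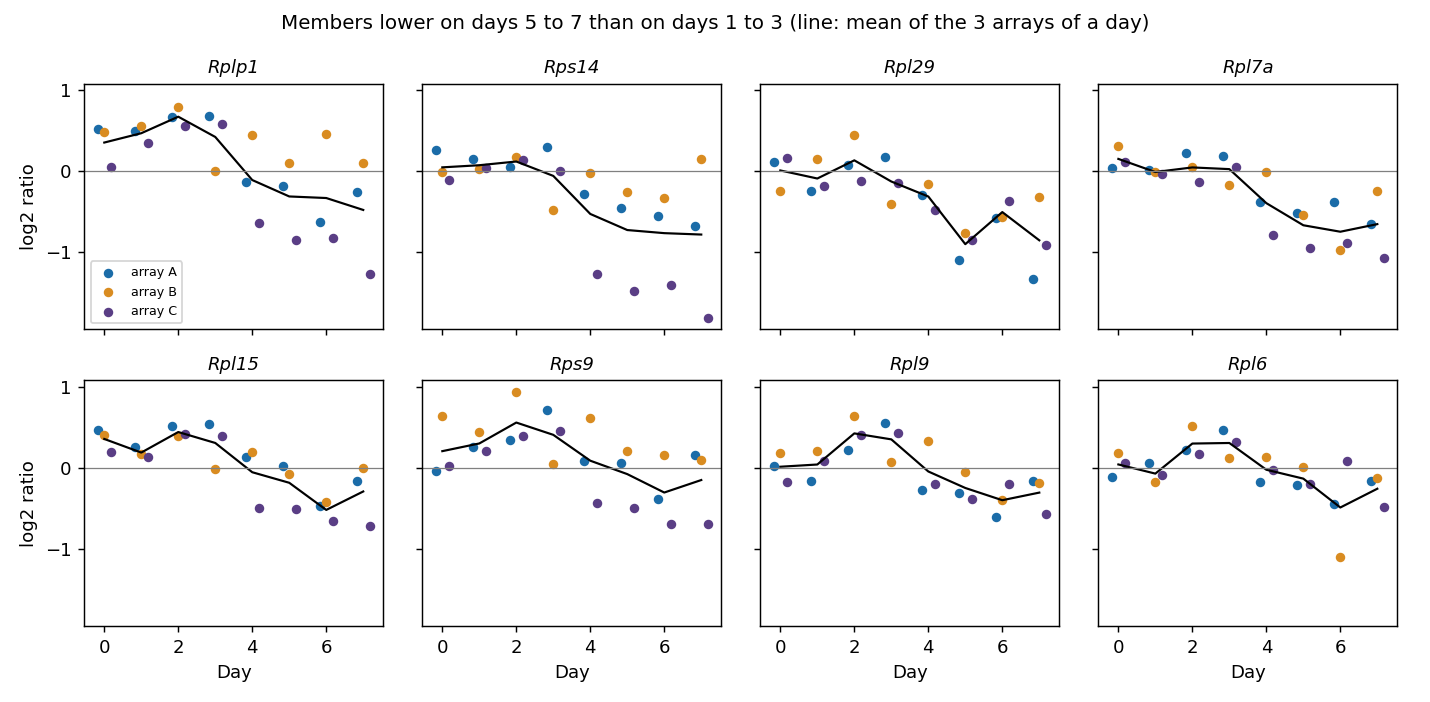
Log2 ratios (vertical axis) by day (horizontal axis) of the 8 members that were lower on days 5 to 7 than on days 1 to 3, with a point for each array coloured by letter and a line through the mean of the 3 arrays of a day. The points of Rpl7a on days 5 to 7 all lie below those of days 1 to 3, and the C arrays of days 4 to 7 lie lowest for Rplp1 and Rps14.

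The direction of the late change was uniform over members on the A arrays and mixed on the B and C arrays. Between days 1 to 3 and days 5 to 7, the mean of the A and B arrays was lower for 56 of the 58 members, with a median difference of -0.32, while 53.0% of everything tested was lower, with a median of -0.02. The exceptions were Rpl7l1 (0.08), the paralog of Rpl7, and Rps15. Without day 6 array B the count was 57 of 58 and the median -0.40. Between the letters, the A arrays alone gave 57 of 58 lower with a median of -0.52, where 51.0% of everything tested was lower. The B arrays alone gave 36 of 58 (62.1%) with a median of -0.08, where 54.8% of everything tested was lower with a median of -0.04, so they were near the background.

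On the C arrays 31 of 58 members were lower, where 51.2% of everything tested was, and the median difference was -0.01, with single differences from -1.63 to 1.15. Rps14 (-1.63), Rplp1 (-1.48), Rplp2 (-1.40), Rpl8 (-1.27) and Rplp0 (-1.25) had the largest negative differences. Rps20 (1.15), Rpl31 (1.06), Rps24 (0.91), Rpl22l1 (0.60) and Rps29 (0.59) had the largest positive ones. The values of the 8 members above on the C arrays and on the A and B arrays had the same sign. Those members were chosen on all these arrays together, so the shared sign is not independent support. Rpl22l1, the paralog of Rpl22, had opposite signs, at -0.81 on the A and B arrays and 0.60 on the C arrays. Of the 56 members with a value on all 6 C arrays, 17 lay wholly lower on the late days and 12 wholly higher, where 28.3% and 25.4% of everything tested did so. Of the 54 members with all 12 values from A and B arrays, 2 lay wholly lower (Rpl7a and Rpl10a) and 0 wholly higher, against 1.17% and 0.984% of everything tested. Both sets of counts are close to the background.

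**Figure D3:**
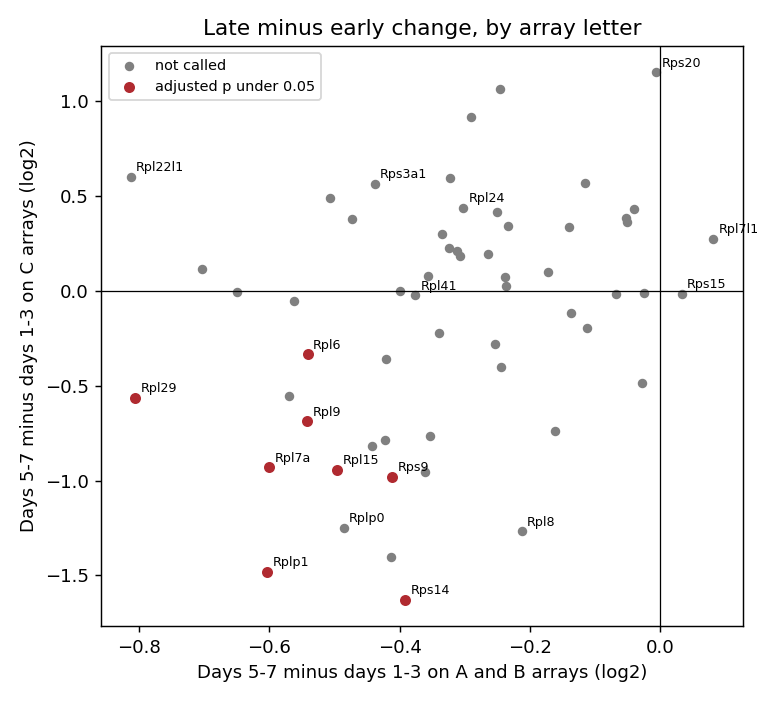
Difference between the mean log2 ratio of days 5 to 7 and that of days 1 to 3 for each member on the A and B arrays (horizontal axis) and on the C arrays (vertical axis), with members past the threshold in red. Of the 58 points, 56 lie left of 0 on the horizontal axis, whereas the vertical axis divides them into 31 below 0 and the rest above.

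Within days 4 to 7, the C arrays were set against the A and B arrays of the same days for the 52 members with a value on all 12. Rpl15, Rpl8, Rplp1, Rps14, Rps19 and Rps9 lay wholly below on the C arrays, 6 of 52, and 13.5% of everything tested did so. Rpl22l1, Rpl7, Rps25, Rps3a1 and Rps6 lay wholly above, 5 of 52, and 11.8% of everything tested did so. The members were thus no more often divided between these arrays than genes in general. The ranges were widely apart for Rpl22l1, which lay at 0.50 to 0.83 on the C arrays and at -0.95 to -0.08 on the others. Rps20, a small-subunit protein, had the highest C values, at 1.62, 1.69, 1.74 and 1.17 on days 4 to 7, but overlapped with day 6 array B.

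Against day 0, few members passed the threshold on the first days. On day 1, 0 of 58 passed the threshold in limma, whereas 10.9% of everything tested passed. At an unadjusted p under 0.05 the counts were 2 of 58 members and 24.5% of everything tested. The median change of the members was -0.12, and changes ranged from -0.69 (Rpl27) to 0.52 (Rplp0). On day 2, only Rpl7l1 passed, 1 of 58 where 17.1% of everything tested did. On day 3, Rpl7l1 was lower and Rps4x higher, 2 of 58 against 24.4%. On day 4, Rpl27 alone was lower, 1 of 58 against 22.2%. The share of members past the threshold was below that of genes in general on each of these days.

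Rpl7l1, a paralog of Rpl7 with a role in processing of ribosomal RNA precursors, had values of 0.62, 0.68 and -0.07 on day 0 and of -0.49, -0.22 and -0.29 on day 2. On day 3 they were -0.27, -0.62 and -0.22. Both days lay wholly below day 0, by -0.75 ± 0.23 and -0.78 ± 0.23 (SE; limma, adjusted p = 0.029 and 0.0171). The difference rests on the high values of day 0 arrays A and B, and with all day 0 signs turned the changes were 0.08 and 0.04, in the opposite direction.

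Rps4x, the X-linked small-subunit protein, was the only member past the threshold as higher in any comparison with day 0. On day 3, 26 of 58 members had a positive change, and that of Rplp0 (1.03) was larger but did not pass. Rps4x was at 0.07, -0.11 and -0.13 on day 0 and at 0.70, 0.71 and 0.63 on day 3. The groups did not overlap, and the change was 0.74 ± 0.19 (SE; limma, adjusted p = 0.00881), a 1.67-fold rise. The rise kept its direction and an adjusted p under 0.05 in 34 of 35 alternatives, both turned signs included, and lost the latter without day 0 arrays A and B and day 6 array B. The level was back at 0.10, 0.28 and 0.11 on day 7, a change of 0.22 ± 0.19 (SE; limma, adjusted p = 0.406).

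On days 5 to 7 all members past the threshold were lower. On day 5 these were Rpl27, Rpl29, Rpl7a and Rps25, 4 of 58, where 22.9% of everything tested passed and 11.2% were lower. On day 6 they were Rpl15, Rpl27 and Rpl7a, 3 of 58, where 24.8% passed and 12.6% were lower. On day 7 they were Rpl15, Rpl27, Rpl29, Rpl35, Rpl41, Rpl7a, Rpl7l1 and Rps10, 8 of 58, where 27.6% passed and 13.0% were lower. The day 7 count is near the background for lower calls. Its 8 members were 7 of 37 large-subunit genes and 1 of 21 small-subunit genes. The median change on day 7 was -0.39 against -0.01 for everything tested, and 48 of 58 changes were negative, against 50.5%.

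Rpl27, a large-subunit protein, was lower from day 4 to day 7 with the day 0 signs as deposited. Its values were 0.63, 0.53 and -0.21 on day 0, -0.50, -0.54 and -0.72 on day 4, -0.70, -0.61 and -0.81 on day 5, -0.69, -1.19 and -0.68 on day 6, and -1.19, -0.43 and -0.58 on day 7. All 12 late values were below all 3 day 0 values. The changes on days 4, 5, 6 and 7 were -0.90, -1.03, -1.17 and -1.05, each ± 0.25 (SE; limma, adjusted p = 0.0143, 0.00657, 0.00227 and 0.00463). Its level was already -0.41, -0.21 and -0.49 on day 1, and it did not pass the test there (change -0.69). With all day 0 signs turned, the changes on days 4, 5, 6 and 7 were -0.26, -0.39, -0.48 and -0.42, and none passed.

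Rpl41 had the largest change of any member on day 7 with the day 0 signs as deposited. With all of them turned, its change was -0.60 (limma, adjusted p = 0.402), and those of Rpl35 (-0.98) and Rpl29 (-0.84) were larger. It encodes a very short, highly basic peptide of the large subunit. Its values were 0.72, 0.33 and -0.17 on day 0 and -1.93, -0.23 and -0.54 on day 7. The 2 groups did not overlap, and the change of -1.19 ± 0.43 (SE; limma, adjusted p = 0.0431) no longer passed without day 7 array A, nor without day 0 array A or B, day 1 array A or C, day 2 array A or day 3 array C. Rps10, a protein of the small-subunit head, was at 0.44, 0.63 and -0.11 on day 0 and at -0.68, -0.06 and -1.06 on day 7, and Rpl35, a protein near the exit of the nascent chain tunnel, was at 0.07, 0.27 and -0.51 and at -1.50, -0.40 and -0.87. For both, the lowest day 0 array lay below the highest day 7 array. The changes were -0.92 ± 0.33 for Rps10 and -0.87 ± 0.30 for Rpl35 (SE; limma, adjusted p = 0.0413 and 0.0392).

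Of the members that were lower late than early, Rpl7a, Rpl29 and Rpl15 were also lower on day 7 than on day 0. Rpl7a was at 0.04, 0.31 and 0.11 on day 0 and at -0.65, -0.24 and -1.07 on day 7, with no overlap, and its change was -0.81 ± 0.24 (SE; limma, adjusted p = 0.0164). Rpl29 was at 0.11, -0.24 and 0.16 on day 0 and at -1.33, -0.32 and -0.91 on day 7, a change of -0.86 ± 0.24 (SE; limma, adjusted p = 0.0117). Rpl15 was at 0.48, 0.41 and 0.19 on day 0 and at -0.16, 0.00 and -0.71 on day 7, a change of -0.65 ± 0.23 (SE; limma, adjusted p = 0.0389). Rpl7l1 was at -0.51, -0.33 and 0.03 on day 7, a change of -0.68 ± 0.23 (SE; limma, adjusted p = 0.031). Rps25, which serves initiation at some internal ribosome entry sites, was at 0.41, 0.22 and -0.36 on day 0 and at -0.85, -1.39 and -0.14 on day 5, and there the groups overlapped (change -0.89 ± 0.30; limma, adjusted p = 0.0377). The comparisons of single days share the day 0 arrays, so their calls are not independent of each other.

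The test for a change on any of days 1 to 7 against day 0 (limma's moderated F-test) named Rpl15, Rpl27, Rpl29, Rpl7a and Rpl9, 5 of 58 members, where 16.5% of everything tested passed. Rpl9 passed although its mean over days 1 to 7 differed from day 0 by only -0.04. Its mean was 0.02 ± 0.18 (SD, n = 3) on day 0, 0.43 ± 0.21 on day 2 and -0.40 ± 0.20 on day 6, on either side of the day 0 level.

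The calls against day 0 depended on the day 0 arrays. With all day 0 signs turned, 0, 2, 3, 2, 3, 1 and 2 members passed on days 1 to 7, and on day 7 these were Rpl29 and Rpl35. The median change of the members on day 7 was then -0.13, with 24 of 58 above 0. With the sign of day 0 array C alone turned, the counts were 2, 5, 6, 4, 8, 3 and 14, and the day 7 median was -0.56, with 9 of 58 above 0. The shares of everything tested that passed with turned signs are not given here, so these counts cannot be read as results about the members. Without day 0 arrays A and B and day 6 array B, 0 members passed on any day, and the median of the members was 0.38 on day 2 and -0.13 on day 7. That setting leaves 1 day 0 array, and 571 of 10305 genes and features passed on day 7 in place of 2940 of 10639.

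Set against the reference channel instead of the day 0 arrays, 5 members were higher on day 2, where 25.8% of everything tested passed and 13.5% were higher: Rpl10, Rpl10a, Rpl15, Rpl9 and Rps4x. On day 7, 10 of 58 members were lower, where 35.1% of everything tested passed and 17.4% were lower, a share near that of the members. These were Rpl27, Rpl29, Rpl35, Rpl38, Rpl41, Rpl7a, Rps10, Rps13, Rps14 and Rps25. The median of the members was 0.28 on day 2 with 47 of 58 above 0, and -0.21 on day 7 with 10 of 58 above 0. With either baseline, the day 7 count of lower members was near the share of lower calls among genes in general.

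**Figure D4:**
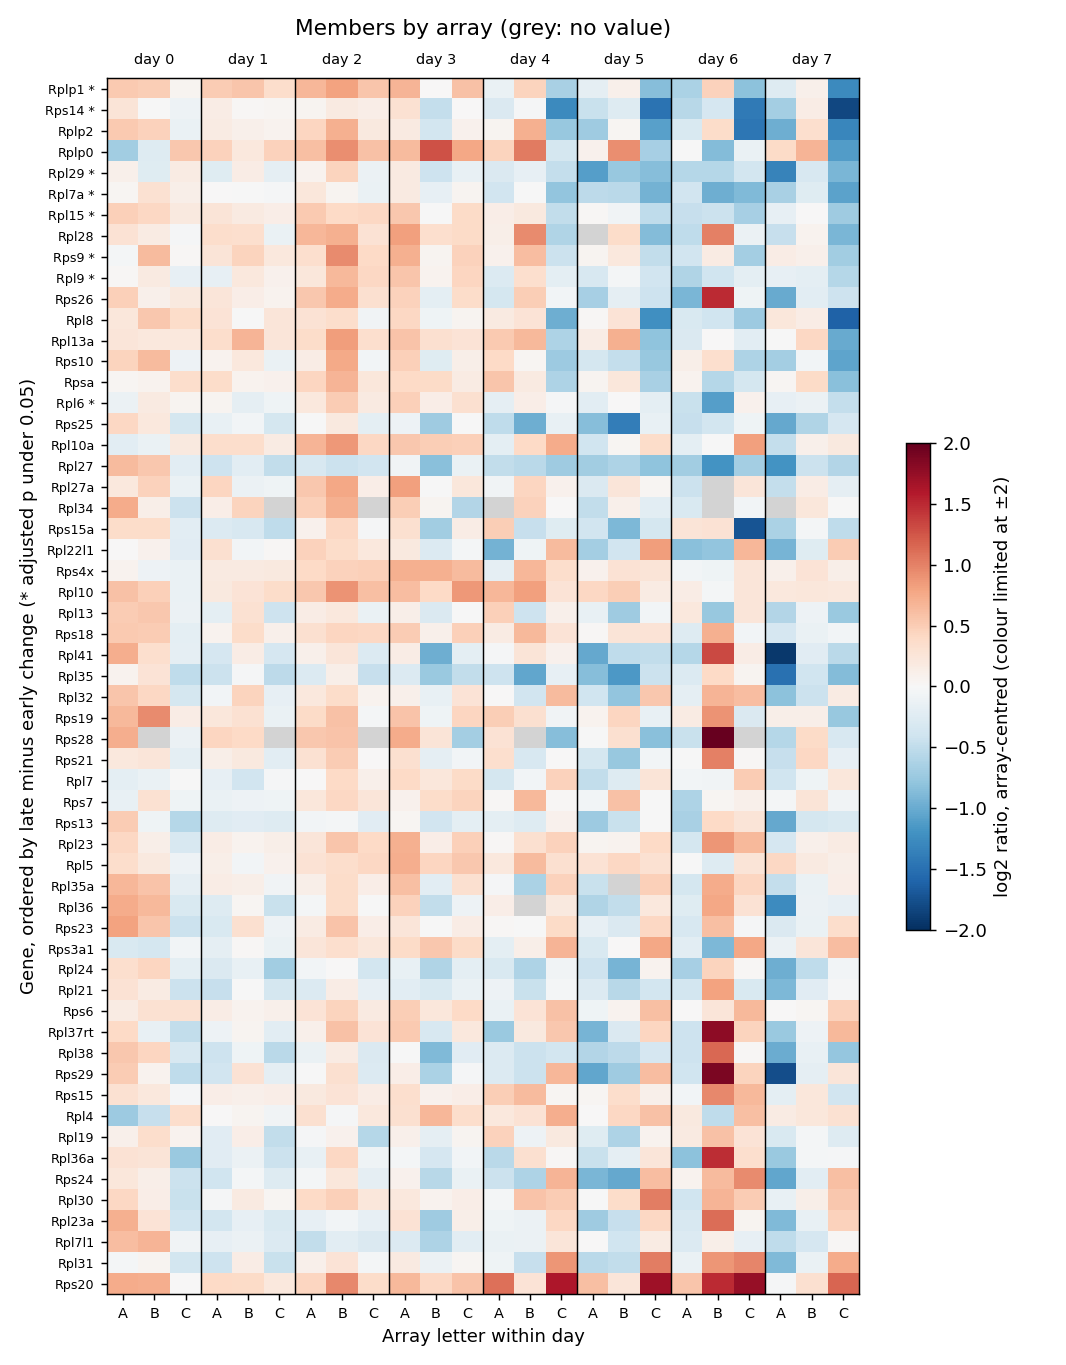
Log2 ratio (colour, limited at 2 in either direction, grey where there is no value) of the 58 members (rows, ordered by the change between days 1 to 3 and days 5 to 7, with an asterisk for the 8 past the threshold) on the 24 arrays (columns, by day and letter). Day 6 array B and the C arrays of days 4 to 7 each have a pattern of high and low members of their own.

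The stalk proteins differed from each other on the day 0 arrays. Rplp0, the protein that anchors the stalk, was at -0.70, -0.25 and 0.54 on day 0, while Rplp1 was at 0.52, 0.49 and 0.06 and Rplp2 at 0.52, 0.45 and -0.14. Where Rplp1 and Rplp2 were high, on arrays A and B, Rplp0 was low, and the order was opposite on array C. On days 1 to 3 the lowest and highest values of Rplp0 were 0.21 and 1.27, and on the C arrays of days 4 to 7 all 4 values were below 0. Between early and late days the changes of Rplp0 and Rplp2 were -0.74 ± 0.26 each (SE) and did not pass the threshold (limma, adjusted p = 0.0802 and 0.0771). Rplp0 and Rplp2 were among the 4 members with the largest SD over the 21 arrays of days 1 to 7, together with Rps29 and Rpl41.

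Other members had no change past the threshold. Rpsa, which besides its place in the small subunit is known as a precursor of a laminin receptor, had a change of -0.29 ± 0.31 (SE) on day 7 (limma, adjusted p = 0.514) and of -0.49 ± 0.18 between early and late days (limma, adjusted p = 0.0929). All 5 of its features gave a lower late level. Rps6, the substrate of the S6 kinases downstream of mTOR, was at 0.01, 0.03 and 0.45 on day 7, and its change from day 0 was -0.09 ± 0.22 (SE; limma, adjusted p = 0.788). Rpl5, which with Rpl11 can bind and restrain Mdm2, had a change of 0.09 ± 0.19 (SE; limma, adjusted p = 0.755) on day 7. Rps6, Rpl5, Rps4x and Rpl7l1 had the smallest SD over the arrays of days 1 to 7 among members measured on all of them.

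Rpl10, whose addition is a late step of large-subunit maturation, was at 0.54, 0.90 and 0.60 on day 2 and at 0.21, 0.22 and 0.21 on day 7, and its change between early and late days was -0.30 ± 0.12 (SE; limma, adjusted p = 0.128). Rps19, a gene mutated in the anaemia of Diamond and Blackfan, was at 0.65, 0.94 and 0.15 on day 0 and at 0.12, 0.12 and -0.75 on day 7. Those groups did not overlap, but the change of -0.75 ± 0.31 (SE) missed the threshold (limma, adjusted p = 0.0779). Rpl13a, which can also leave the ribosome to silence inflammatory mRNAs, had a change of -0.42 ± 0.37 (SE; limma, adjusted p = 0.411) on day 7.

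Among members measured on all arrays, the mean of days 1 to 7 lay furthest below day 0 for Rpl27, Rpl7l1, Rpl41, Rpl24, Rpl8 and Rpl38 with the day 0 signs as deposited. This order does not hold with the signs turned, when Rpl27 went from -0.89 to -0.25 and Rpl7l1 from -0.60 to 0.22, and Rpl35 and Rpl29 lay lowest. Of these, Rpl24, Rpl8 and Rpl38 passed no test, with day 7 changes of -0.70 ± 0.31, -0.79 ± 0.42 and -0.85 ± 0.33 (SE; limma, adjusted p = 0.0898, 0.163 and 0.0595). With the signs as deposited it lay furthest above day 0 for Rpl4, Rplp0, Rps3a1, Rps4x, Rpl10a and Rps20, and with them turned Rpl4 (-0.04) and Rps3a1 (-0.08) were below it. Rpl4, Rplp0, Rps3a1 and Rpl10a were at the same time the lowest members of day 0 array A, at -0.72, -0.70, -0.31 and -0.22. Of the 50 members not past the threshold on day 7, the changes ran from -0.93 (Rplp2) to 0.51 (Rpl4), with 40 negative and 10 positive. Between early and late days the 50 others ran from -0.74 (Rplp2) to 0.38 (Rps20), again with 40 negative and 10 positive.

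Of 79 listed factors that assemble ribosomes 45 were measured. On day 1, 8 of them were lower and 0 higher, at a median change of -0.36, where 5.92% of everything tested was lower. On day 7, 13 were lower and 0 higher, at a median of -0.64, against -0.01 for everything tested, of which 13.0% was lower. The most changed were Mrto4 (-2.21 ± 0.61), Nhp2 (-1.84 ± 0.42), a protein of the particles that modify ribosomal RNA, Ddx21 (-1.74 ± 0.27), a nucleolar RNA helicase, and Exosc8 (-1.61 ± 0.19), a subunit of the RNA exosome (SE; limma, adjusted p = 0.012, 0.0033, 0.000126 and 1.18e-05). Between early and late days 4 of the 45 passed, near the background of 7.74% of everything tested. Of the 4, 3 were higher (Gnl2, Nop14 and Ddx47) and 1 lower (Exosc8), and the median over the 45 was -0.03. The array medians of these factors were -0.56 to -0.43 on day 2 and -0.61 to -0.19 on day 7, while the ribosomal protein mRNAs on day 2 had array medians of 0.13 to 0.41. With all day 0 signs turned, 6 of the 45 were lower and 1 higher on day 7 (median -0.29), and with that of array C alone, 14 lower and 2 higher (median -0.46).

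The mitochondrial ribosome has its own set of proteins, and its mRNAs are made separately. Of 53 listed, 48 were measured. On day 1, 1 was lower (Mrpl18), on day 4, 16, and on day 7, 19, with 0 higher on each of these days, where 5.92%, 10.9% and 13.0% of everything tested was lower. The median change on day 7 was -0.63. The most changed on day 7 were Mrps28 (-1.76 ± 0.33), Mrpl55 (-1.60 ± 0.36), Mrpl57 (-1.50 ± 0.32) and Mrpl20 (-1.49 ± 0.35) (SE; limma, adjusted p = 0.000793, 0.00287, 0.00185 and 0.0037). Between early and late days 10 of 48 were lower and 0 higher, at a median of -0.37, where 4.23% of everything tested was lower, and 0 passed with the random block. Array medians of this list ran from -0.35 to -0.17 on day 3 and from -0.67 to -0.11 on day 7. With all day 0 signs turned, 2 of the 48 were lower and 1 higher on day 7 (median -0.38), and with that of array C alone, 21 were lower (median -0.60). The difference between these lists and the cytoplasmic ribosomal proteins was not tested, and all comparisons with day 0 share its arrays. For both lists, the counts with turned signs are given without the share of everything tested that passed.

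Of 27 other listed mRNAs of the translation machinery that carry a pyrimidine start, or are made in a unit with one, 12 were measured. On day 7, 2 were higher and 0 lower, at a median of 0.12, where 27.6% of everything tested passed in either direction. These were the initiation factor Eif4b (1.07) and the histone chaperone Nap1l1 (0.62), and Eif4b was also higher on days 3 to 6. Among regulators of ribosome production and growth, 11 of 29 were measured, and 3 of the 11 passed on day 7, near the background of 27.6%. There, Tsc1 (1.16 ± 0.42), an inhibitor of mTOR signalling, and Maf1 (1.12 ± 0.26), a repressor of RNA polymerase III, were higher, and Larp1 (-0.77 ± 0.22), which binds pyrimidine starts, was lower (SE; limma, adjusted p = 0.0443, 0.00393 and 0.0123). Myc, a transcription factor that drives ribosome production, was lower on day 3 and passed on no other day. On day 3, 4 of the 11 passed (Larp1, Maf1, Mxd4 and Myc), where 24.4% of everything tested did. When all day 0 signs were turned, 1 of the 12 and 1 of the 11 were higher and 0 lower on day 7, again without a background share.

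**Figure D5:**
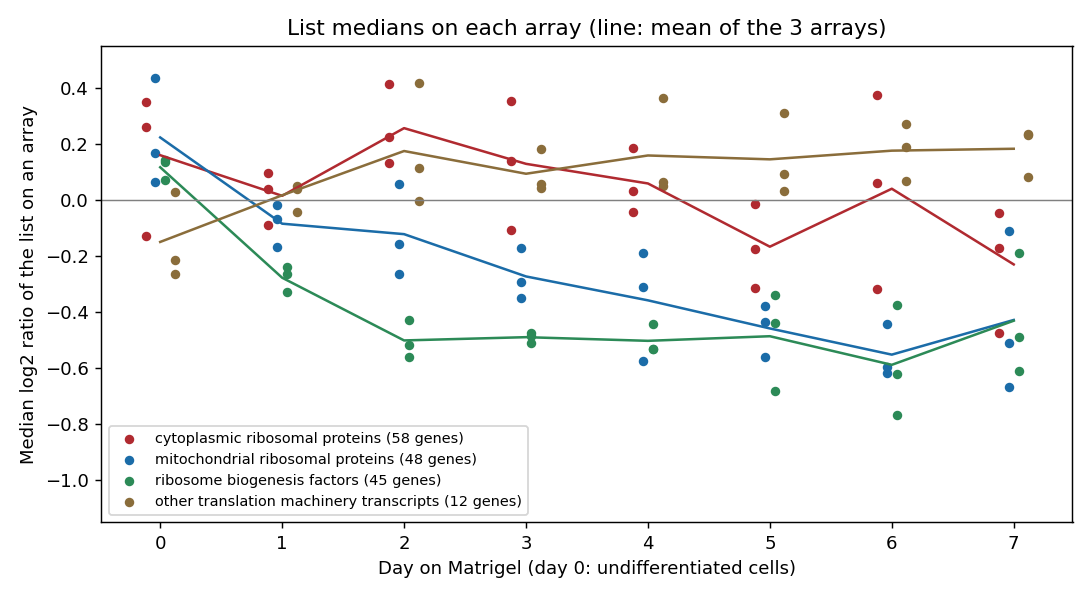
Median log2 ratio (vertical axis) of 4 gene lists on each array by day (horizontal axis), with a point for each array and a line through the mean of the 3 arrays. The biogenesis factors lie between -0.56 and -0.43 on day 2, when the cytoplasmic ribosomal proteins lie between 0.13 and 0.41, and the mitochondrial ribosomal proteins lie between -0.67 and -0.11 on day 7.

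Markers of other cells moved over the same days. The fibroblast markers, which would mark remaining feeder cells, had 10 of 18 genes measured, with array medians of -0.79 to 0.15 on day 0, 0.16 to 0.62 on day 1, 0.62 to 0.92 on day 2, 0.75 to 1.13 on day 3, 0.67 to 0.83 on day 4, 0.31 to 0.60 on day 5, 0.41 to 0.61 on day 6 and 0.15 to 0.50 on day 7. They were thus highest on days 2 to 4. On day 0 arrays A and B, where the ribosomal protein medians were 0.35 and 0.26, they were at -0.79 and -0.55. Between early and late days 3 of the 10 fibroblast markers were lower (Col5a1, Col5a2 and Col6a2) and Dcn was higher. Over everything tested, 4.23% was lower and 7.74% passed in either direction. Of the hepatoblast and hepatocyte markers, 4 of 14 were measured, and H19, Afp and Igf2 were higher on day 7, by 3.34 ± 0.84, 1.93 ± 0.69 and 1.80 ± 0.59 (SE; limma, adjusted p = 0.00634, 0.0427 and 0.0281). Of these 3, only H19 passed with all day 0 signs turned. Of the bile duct markers 3 of 10, and of the blood cell markers 3 of 8, were measured, with day 7 array medians of -0.17 to 1.24 and of 0.10 to 0.89. On the C arrays of days 4 to 7 the bile duct median was -0.22, -0.34, -0.41 and -0.17. On the A and B arrays of those days it ran from 1.00 to 1.68. The part of any of these cells in the ribosomal protein values was not tested, and in these bulk samples fewer cells of a type and less RNA per cell cannot be told apart.

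Over the series, arrays held values for 12328 to 22149 of 24157 features, and the SD of the log ratios was smallest on day 0 array C (0.33) and largest on day 7 array C (1.06). The median standard error of a change over everything tested was 0.31 on day 7 and 0.18 between early and late days. Of the 58 members 29 had more than 1 feature. For the members past the threshold on day 7 or between early and late days that had several features, all features agreed in sign with the gene in the comparison concerned. The features of Rps6 disagreed, at -0.36 to 0.33 on day 7. A feature cannot tell a member from a near-identical copy or a processed pseudogene.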

How the data were processed

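Per the labels' protocols, total RNA was amplified, Cy5 targets of each sample and Cy3 targets of undifferentiated cells were made with random primers, and both were hybridised to 1 array. The deposited values are log ratios, taken here as log2, of 24157 features on 24 arrays. Scanner, background correction, normalization and the cause of empty cells were not given in the sources used here. Scale and direction stay unknown beyond the reading given above.

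Symbols came from the platform annotation, which listed 13908 features, 13319 with 1 symbol and 589 with several genes (unnamed here), and 13290 symbols were updated by Entrez identifier. A gene was the mean over its features. Units were genes or unnamed features with at least 2 values in each of the 8 groups (10639, of which 5660 genes). Arrays were centred on their medians. Day means were fitted over all 24 arrays by lmFit and eBayes of limma 3.58.1 (R 4.3.3; 2-sided, Benjamini-Hochberg over all units, threshold 0.05). The code was tested on simulated data.

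The ribosomal protein genes and all gene lists were chosen with earlier results of these data known, so the counts on the lists are not independent support. Genes named are all members past the threshold, the members with the 6 largest positive and 6 largest negative mean changes, the 4 largest and 4 smallest SDs, a fixed set of well-known members and up to 4 changed genes from each list. Letters A, B and C were checked as possible pairs. Deviations of same-letter arrays from their day means, over all units, had correlations that ran from -0.54 to 0.91 with 51 of 84 same-letter pairs over 0.1. The letters therefore did not pair arrays over the whole series, although all pairs within days 1 to 3 and within days 4 to 7 were over 0.1. A fit with letter within period as a random block (duplicateCorrelation) was added after seeing the data. Precision is limited by having 3 arrays for each day. Alternatives changed the centring, scale, signs of day 0, baseline, samples fitted, features averaged, empty-cell filter and arrays left out.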

Additional observations from a re-analysis of the deposited data

Results flagged for a closer look

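Between days 1 to 3 and days 5 to 7, the effect of time on Matrigel relative to the reference differed by a test of that difference (limma) for 8 members. The differences, late minus early, were -0.90 for Rplp1, -0.80 for Rps14, -0.73 for Rpl29, -0.71 for Rpl7a, -0.64 for Rpl15, -0.60 for Rps9, -0.59 for Rpl9 and -0.47 for Rpl6. With letter within period as a random block, a fit added after seeing the data, none of the 8 passed the threshold (limma, adjusted p from 0.140 to 0.421). All 8 had the same sign on the A and B arrays as on the C arrays. They were chosen on all these arrays together, so the shared sign is not independent support.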

How the results depend on the processing

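Counts of members past the threshold are given for days 1 to 7 against day 0, then for the F-test and for days 5 to 7 against days 1 to 3. They were 0, 1, 2, 1, 4, 3, 8, 5 and 8, and were the same without centring, with medians over features and with values on all arrays. With arrays scaled they were 2, 4, 4, 3, 6, 5, 10, 5 and 10. With all day 0 signs turned they were 0, 2, 3, 2, 3, 1, 2 and 3, and with day 0 array C alone turned 2, 5, 6, 4, 8, 3, 14 and 6. With either turning, the same 8 members passed for late against early, and that comparison was not made against the reference channel. Against the reference channel they were 0, 5, 4, 4, 6, 9, 10 and 13. With the replicate block they were 0, 2, 3, 2, 6, 3, 13, 7 and 14. Arrays of 1 letter deviated together within days 1 to 3 and within days 4 to 7 but only in part of the pairs between these periods or with day 0, and with letter within period as a random block, added after seeing the data, the count for late against early was 0. With only the compared groups fitted they were 0, 4, 5, 0, 0, 1 and 0, and 6 for late against early. Without day 0 arrays A and B and day 6 array B they were 0 throughout, except 8 for late against early, of which 6 were shared with the full fit. Without the C arrays of days 4 to 7 they were 1, 5, 8, 2, 7, 6, 9, 12 and 10. Leaving out 1 array gave ranges of 0 to 2, 0 to 2, 1 to 5, 0 to 3, 2 to 8, 3 to 6, 2 to 15, 1 to 6 and 5 to 13. The 15 came without day 0 array C and the 2 without day 0 array B or day 7 array A. Of 929 values of members past the threshold under an alternative, 772 kept their direction and side of the threshold and 153 only their direction. With all day 0 signs turned, 4 reversed: Rpl7l1 on days 2, 3 and 7 (0.077, 0.040 and 0.141) and Rpl15 on day 7 (0.070). The cause of these differences was not tested, and fits with arrays left out also held fewer arrays. The shares of everything tested that passed are not set beside these counts. A changed count therefore cannot be read as a result about the members. Features without values on many arrays, and the unknown signal over background, limit what can be said of weakly expressed members.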
